A study of Homo sapiens with 6 samples.

Results

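The miR-181 family was followed in HEK 293T, a line of transformed cells from human embryonic kidney, as 7 mature arms among the 1000 mature miRNAs of the count table. The arms were taken by name and are hsa-miR-181a-5p, hsa-miR-181a-3p, hsa-miR-181a-2-3p, hsa-miR-181b-5p, hsa-miR-181c-5p, hsa-miR-181c-3p and hsa-miR-181d-5p, written without the species prefix from here on. The study compared 3 libraries of a strain that lacks the terminal uridylyltransferases TUT4 and TUT7, which the labels name TENT3A/B (ΔTUT4/7), with 3 libraries of the wild type line. Both strains were kept in DMEM with fetal bovine serum, and the labels give no treatment. The ΔTUT4/7 cells are 1 strain that was made earlier, so any other difference between the strains is part of each comparison. The labels call the libraries biological replicates and do not say whether they came from separate cultures, so p-values measure the spread between these libraries. The table holds no mRNA, and the loss of TUT4 and TUT7 was not checked in it.

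miR-181 miRNAs regulate mRNAs through a seed near the 5′ end of the guide arm, and they are known from lymphocyte development, neural tissue and cancer. Their hairpins are cut from long primary transcripts in the nucleus and then by DICER in the cytoplasm, which leaves a 5p and a 3p arm. TUT4 and TUT7 add uridines to the 3′ ends of miRNA precursors and mature miRNAs. A single uridine helps DICER to process the precursors named group II, which end in a shortened 3′ overhang, while a long uridine tail leads to decay.

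The family is encoded at 3 loci of hg38, each with a pair of hairpins. On chromosome 1, the hairpins MIR181A1 (chr1:198859044-198859153) and MIR181B1 (chr1:198858873-198858982) lie 61 bp apart on the minus strand, in an intron of the lncRNA gene MIR181A1HG. On chromosome 9, MIR181A2 (chr9:124692442-124692551) and MIR181B2 (chr9:124693710-124693798) lie 1158 bp apart on the plus strand, in an intron of the lncRNA gene MIR181A2HG and antisense to introns of NR6A1, which encodes an orphan nuclear receptor. On chromosome 19, MIR181C (chr19:13874699-13874808) and MIR181D (chr19:13874875-13875011) lie 66 bp apart on the plus strand, in an intron of NANOS3, a germ cell gene. The loci and hosts were read from GENCODE release 44.

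The 5p arms are the guide arms by which the family is defined, and they are shown because they share a seed but not a locus. RefSeq (GRCh38.p14) holds the following sequences, written 5′ to 3′ with the seed, bases 2 to 8, in capitals.
hsa-miR-181a-5p: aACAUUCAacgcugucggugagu
hsa-miR-181b-5p: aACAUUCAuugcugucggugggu
hsa-miR-181c-5p: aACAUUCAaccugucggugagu
hsa-miR-181d-5p: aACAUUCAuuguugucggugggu
All 4 carry the seed ACAUUCA, and no other miRNA of the table did among the 897 of 1000 that were found in the RefSeq table. Counted from the 5′ end, miR-181a-5p and miR-181b-5p differ by the substitutions A9U, C10U and A21G. miR-181b-5p and miR-181d-5p differ by C12U alone, and miR-181c-5p equals miR-181a-5p without its base 11. The sequences of miR-181a-5p and miR-181b-5p are each made at 2 loci, on chromosomes 1 and 9, and counts of these arms cannot tell the loci apart. miR-181c-5p and miR-181d-5p come from chromosome 19 alone.

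The 3p arms are shown because they separate the loci that the 5p arms merge.
hsa-miR-181a-3p: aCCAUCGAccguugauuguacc
hsa-miR-181a-2-3p: aCCACUGAccguugacuguacc
hsa-miR-181c-3p: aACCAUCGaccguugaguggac
miR-181a-3p comes from chromosome 1 (chr1:198859069-198859090) and miR-181a-2-3p from chromosome 9 (chr9:124692518-124692539), and they differ by U5C, C6U and U16C. The first and second of these changes fall in the seed. The arm miR-181c-3p of chromosome 19 (chr19:13874763-13874784) begins 1 base earlier than its chromosome 1 counterpart. Reads were trimmed to 18 nt before alignment. No miR-181 arm shares its first 18 nt with another miRNA that was found in RefSeq, but miR-181b-5p and miR-181d-5p differ there at 1 base.

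The 6 libraries had between 4338558 and 7967606 counts, so that 1 count was worth well under 1 CPM and a floor of 3 counts lay at 0.377 to 0.691 CPM. Levels are given as CPM, the counts scaled to a common library total, for which a gain in other miRNAs lowers the value. In bulk libraries of this kind, fewer molecules of an arm per cell and more of the other miRNAs cannot be told apart. The let-7 family and miR-98 made up 19.2% to 19.7% of each ΔTUT4/7 library and 5.57% to 6.36% of each wild type library. The miR-181 arms were of moderate or low abundance, and the most abundant, miR-181a-3p, was number 173 of the 1000 miRNAs by mean CPM. Together the 7 arms had 308 to 344.5 CPM in ΔTUT4/7 and 336.3 to 398.2 CPM in wild type libraries, with overlapping ranges (means 331.9 ± 20.7 and 366.1 ± 31.0, SD, n = 3 each, 2-sided exact permutation test, p = 0.3).

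Single arms of the family went in different directions in ΔTUT4/7 cells. miR-181d-5p of chromosome 19 was 2.11-fold higher, miR-181a-2-3p of chromosome 9 was 2.51-fold lower, and miR-181a-3p of chromosome 1 had nearly the same level in both strains. The other arms of chromosome 19, miR-181c-5p and miR-181c-3p, did not pass the test. All 7 arms reached more than 7 counts in some library, the limit for a test, and were compared with edgeR's quasi-likelihood test over 826 miRNAs. Of the 7, 1 rose, 1 fell and 5 did not pass an adjusted p of 0.05. Of all tested miRNAs 45.2% passed, with 23.2% higher and 21.9% lower in ΔTUT4/7. Both arms that passed also changed by at least 2-fold, which 30.0% of all tested miRNAs did. The median log2 fold change was 0.014 over the 7 arms and 0.013 over all tested miRNAs. In 5 of the 7 arms the libraries of the strains did not overlap, which held for 58.4% of all tested miRNAs. The share of members that passed, with or without the 2-fold limit, was therefore no higher than among all tested miRNAs. The share without overlap was higher, but over only 7 arms.

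**Figure D1:**
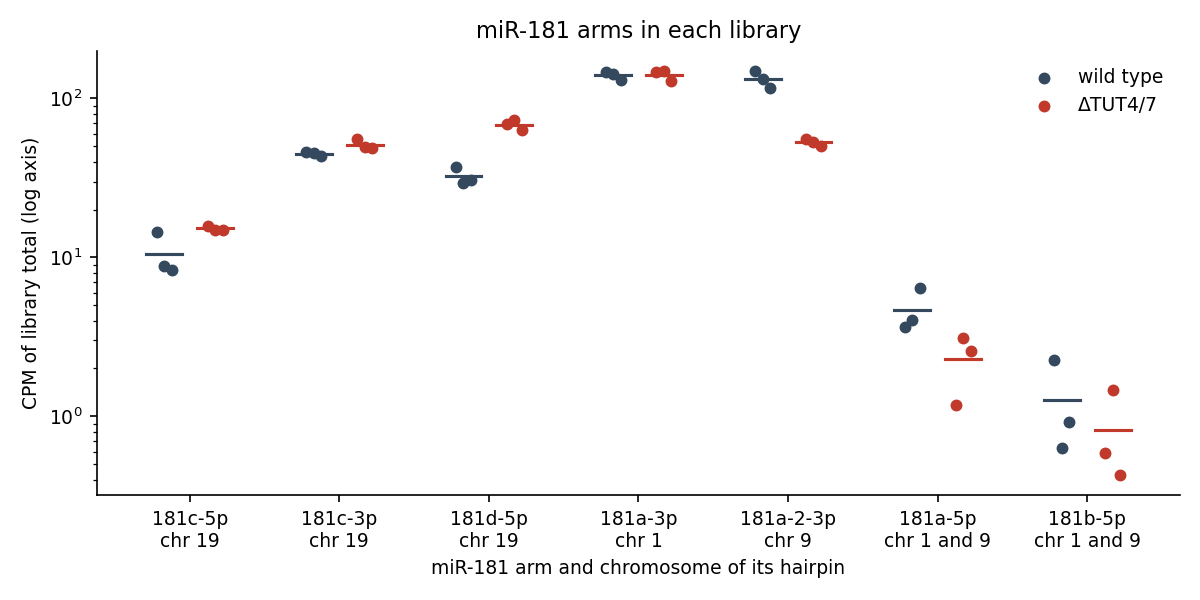
CPM of the 7 miR-181 arms (log axis), with 1 point per library, wild type at left and ΔTUT4/7 at right of each pair, and the mean as a bar. The ΔTUT4/7 points lie above the wild type points for miR-181c-5p, miR-181c-3p and miR-181d-5p and below them for miR-181a-2-3p and miR-181a-5p, while miR-181a-3p and miR-181b-5p overlap.

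On chromosome 19, miR-181d-5p had 69.2, 73.0 and 62.9 CPM in ΔTUT4/7 replicates 1, 2 and 3 and 36.9, 29.2 and 30.9 CPM in wild type replicates 1, 2 and 3. Every ΔTUT4/7 library lay well above every wild type library. The means were 68.4 ± 5.08 and 32.4 ± 4.06 CPM (SD, n = 3 each). On the log2 scale this was a rise of 1.08 with a standard error of 0.18 (95% interval 0.68 to 1.48, edgeR adjusted p = 5.98e-04). This arm also had the most counts of the family's 5p arms, with 295 to 351 per ΔTUT4/7 library and 134 to 233 per wild type library. MIR181D and MIR181B1 are the 2 miR-181 hairpins on the study's list of 45 group II hairpins. The opposite arm, miR-181d-3p, is not one of the 7 and had at most 7 counts in a library, so it was not tested.

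miR-181c-5p, made from the hairpin next to MIR181D, had 15.77, 14.97 and 14.93 CPM in ΔTUT4/7 and 14.5, 8.79 and 8.30 CPM in wild type replicates 1, 2 and 3. Wild type replicate 1 stood close to the ΔTUT4/7 libraries, and the other wild type libraries lay clearly under them. The log2 fold change was 0.54 (standard error 0.25, 95% interval -0.0059 to 1.10) and did not pass (edgeR adjusted p = 0.0957). Without wild type replicate 1 it was 0.83 and passed (edgeR adjusted p = 0.0193). With let-7 and miR-98 taken out of the library totals it was 0.77 and also passed (edgeR adjusted p = 0.0251). The arm rested on 70 to 80 counts per ΔTUT4/7 library and 36 to 70 per wild type library.

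miR-181c-3p, from the same hairpin, had 55.8, 49.3 and 48.8 CPM in ΔTUT4/7 and 45.8, 45.3 and 43.3 CPM in wild type replicates 1, 2 and 3. The strains did not overlap, but the gap was small. Its log2 fold change of 0.20 (standard error 0.17, 95% interval -0.18 to 0.57) did not pass (edgeR adjusted p = 0.374), and the interval leaves out a 2-fold change in either direction.

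On chromosome 1, miR-181a-3p had 146.2, 148.0 and 128.4 CPM in ΔTUT4/7 and 146.2, 142.3 and 130.0 CPM in wild type replicates 1, 2 and 3. The libraries of the strains overlapped throughout. The means were 140.9 ± 10.9 CPM and 139.5 ± 8.46 CPM (SD, n = 3 each). The log2 fold change of 0.014 had a standard error of 0.16 (95% interval -0.33 to 0.36) and did not pass (edgeR adjusted p = 0.953). With 564 to 1134 counts per library, this interval excludes a 2-fold change. The sign of the value was not stable, and it was -0.030 with RLE normalization factors. The other 3p arm of this locus, miR-181b-3p, is not one of the 7 and had 1 to 4 counts per library.

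On chromosome 9, miR-181a-2-3p had 55.8, 53.2 and 49.9 CPM in ΔTUT4/7 and 148.9, 133.4 and 116.4 CPM in wild type replicates 1, 2 and 3. The lowest wild type library held more than any ΔTUT4/7 library by a wide margin. The means were 53.0 ± 2.94 and 132.9 ± 16.3 CPM (SD, n = 3 each). The log2 fold change of -1.33 had a standard error of 0.17 (95% interval -1.70 to -0.95, edgeR adjusted p = 8.48e-05). The counts were 234 to 283 per ΔTUT4/7 library and 505 to 1063 per wild type library.

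The second hairpin of the chromosome 9 locus gave a like value. Its arm miR-181b-2-3p is in the table but not one of the 7, and it had 1.97, 2.29 and 2.35 CPM in ΔTUT4/7 and 4.31, 4.77 and 5.30 CPM in wild type replicates 1, 2 and 3. The strains did not overlap, and the log2 fold change of -1.12 with a standard error of 0.31 passed (edgeR adjusted p = 0.0110). The arm rested on only 10 to 38 counts per library, and it differs from miR-181b-3p at 1 base of the first 18.

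The 5p arms made at both of these loci had few counts, and how reads of sequences made at 2 loci were counted is not stated. miR-181a-5p had 1.18, 3.12 and 2.56 CPM in ΔTUT4/7 and 3.63, 4.02 and 6.45 CPM in wild type replicates 1, 2 and 3. All ΔTUT4/7 libraries were lower, but the highest of them lay close to the lowest of the wild type. With 6, 15 and 12 against 16, 32 and 28 counts, the log2 fold change was -1.03 (standard error 0.40, 95% interval -1.90 to -0.15), which narrowly missed the threshold (edgeR adjusted p = 0.0538). It passed under 6 of the 15 alternatives, with an adjusted p of 0.0341 with RLE normalization factors in edgeR. Under the other 9 it did not pass, among them DESeq2 (adjusted p = 0.0856). With let-7 and miR-98 taken out of the library totals it was -0.81 and did not pass (edgeR adjusted p = 0.116).

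miR-181b-5p had 0.591, 1.46 and 0.427 CPM in ΔTUT4/7 and 2.27, 0.628 and 0.922 CPM in wild type replicates 1, 2 and 3. The strains overlapped and the counts were 2 to 10 per library, at or near the floor. The log2 fold change of -0.53 had a standard error of 0.71 (95% interval -2.09 to 1.03, edgeR adjusted p = 0.568), so a 2-fold difference in either direction was not detectable at this depth.

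**Figure D2:**
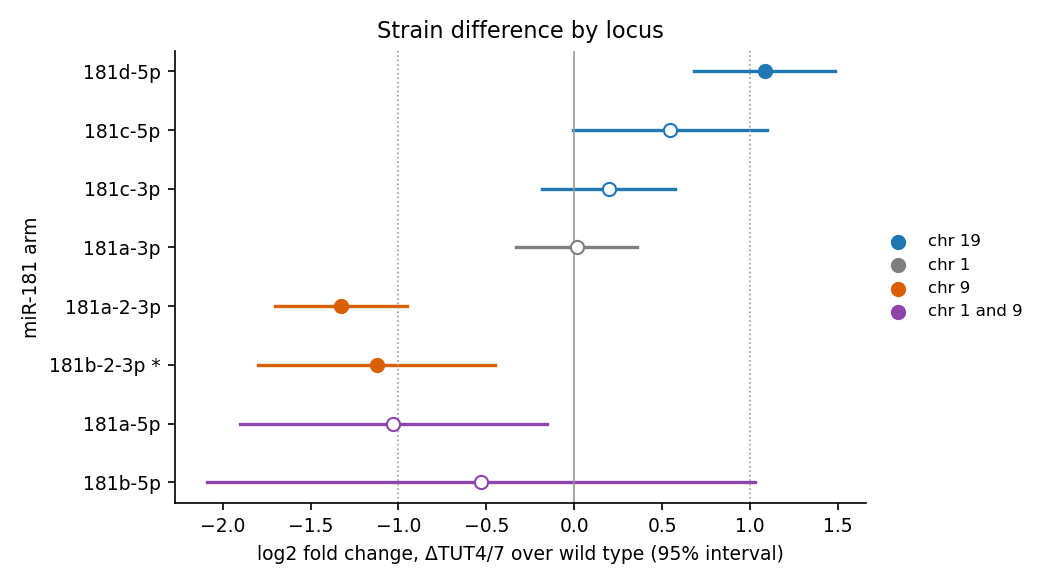
Log2 fold change of ΔTUT4/7 over wild type for 8 miR-181 arms with 95% intervals, coloured by the chromosome of the hairpin. Filled points passed an edgeR adjusted p of 0.05, dotted lines mark 2-fold changes, and the asterisk marks miR-181b-2-3p, which is not one of the 7. miR-181d-5p of chromosome 19 lies at 1.08, miR-181a-3p of chromosome 1 at 0.014 and the arms of chromosome 9 at -1.33 and -1.12.

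The chromosome 19 cluster was next set against the a and b clusters within each library. Such a ratio does not change with the library total. The summed counts of miR-181c-5p, miR-181c-3p and miR-181d-5p were 0.691, 0.667 and 0.699 times those of the 4 a and b arms in ΔTUT4/7 replicates 1, 2 and 3. They were 0.323, 0.297 and 0.325 times those of the a and b arms in wild type replicates 1, 2 and 3. The strains were far apart relative to the spread, with a difference of 1.12 on the log2 scale (SD 0.035 in ΔTUT4/7 and 0.073 in wild type, n = 3 each), or 2.17-fold. The 2-sided exact permutation test gave p = 0.1, the smallest that 3 against 3 libraries allow, and an adjusted p of 0.12 over the 6 ratios examined.

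The same sum was then set against 1 locus at a time. Against miR-181a-3p of chromosome 1, their ratio was 0.962, 0.927 and 0.987 in ΔTUT4/7 and 0.665, 0.586 and 0.635 in wild type replicates 1, 2 and 3, a difference of 0.61 on the log2 scale. Against miR-181a-2-3p of chromosome 9, it was 2.52, 2.58 and 2.54 in ΔTUT4/7 and 0.653, 0.625 and 0.709 in wild type replicates 1, 2 and 3, a difference of 1.94, or 3.84-fold. In wild type cells the chromosome 19 arms together thus had fewer counts than the chromosome 9 arm, and in ΔTUT4/7 cells more.

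miR-181d-5p carried much of the sum, and the ratios were repeated without it, a choice made after the data had been seen. With miR-181c-5p and miR-181c-3p alone, the difference was 0.76 on the log2 scale against the a and b arms, 0.25 against chromosome 1 and 1.59 against chromosome 9, each without overlap of the strains and with p = 0.1 in the exact permutation test. miR-181c-3p alone was 0.382, 0.333 and 0.381 times miR-181a-3p in ΔTUT4/7 and 0.314, 0.319 and 0.334 times in wild type replicates 1, 2 and 3. These values overlapped, so for this arm a difference from chromosome 1 was not shown (0.18 on the log2 scale, exact permutation test, p = 0.2). Against miR-181a-2-3p of chromosome 9, which itself fell, the difference of miR-181c-3p was 1.51, without overlap.

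The 2 miR-181a hairpins could be compared directly through their 3p arms. In wild type libraries the counts of miR-181a-3p were 0.982, 1.07 and 1.12 times those of miR-181a-2-3p, close to equality in replicates 1, 2 and 3. In ΔTUT4/7 libraries they were 2.62, 2.78 and 2.57 times as many, a difference of 1.33 on the log2 scale. The exact permutation test of this difference, and of those of the summed chromosome 19 arms against either locus, gave p = 0.1, the smallest possible, and an adjusted p of 0.12 over the 6 ratios.

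Within the chromosome 19 cluster, miR-181d-5p had 4.37, 4.85 and 4.19 times the counts of miR-181c-5p in ΔTUT4/7 and 2.53, 3.31 and 3.68 times in wild type replicates 1, 2 and 3. The strains did not overlap, and the difference of 0.51 on the log2 scale again gave the smallest p of the exact permutation test, 0.1 (0.12 adjusted over the 6 ratios). The difference was 0.35 without wild type replicate 1, the library in which miR-181c-5p was high. For the 2 arms of the miR-181c hairpin, the 5p to 3p ratio was 0.284, 0.305 and 0.307 in ΔTUT4/7 and 0.319, 0.195 and 0.194 in wild type replicates 1, 2 and 3. Here the strains overlapped through wild type replicate 1 (difference 0.38 on the log2 scale, exact permutation test, p = 0.4, adjusted p = 0.4).

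**Figure D3:**
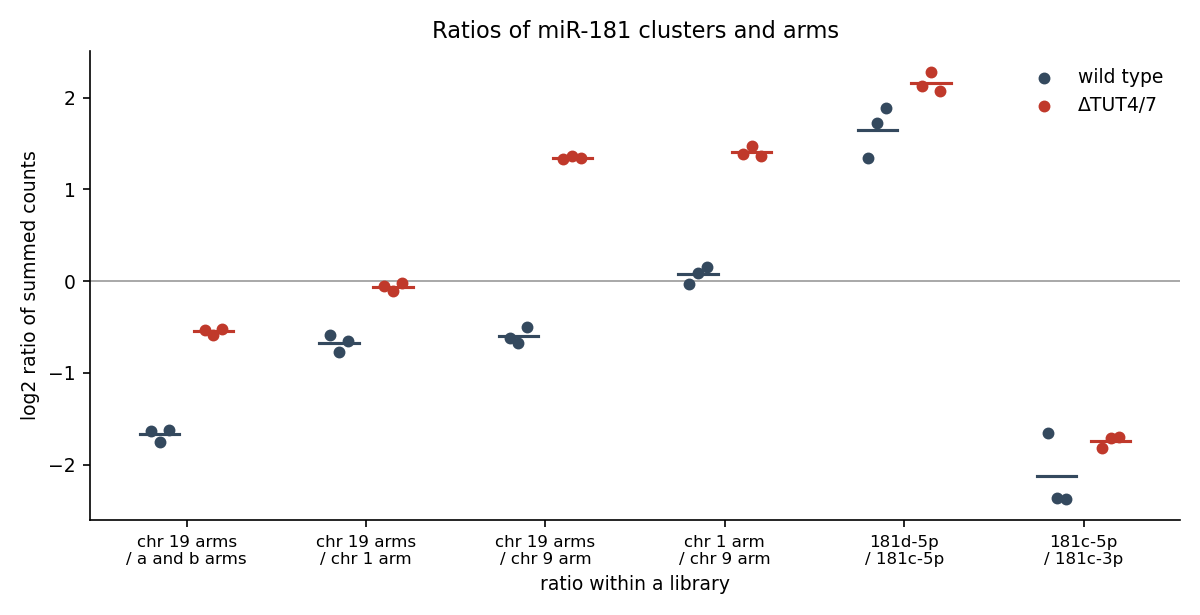
Log2 ratios of summed counts within each library for 6 pairs of miR-181 clusters or arms, with 1 point per library and the mean as a bar. The strains are apart for the first 5 ratios and farthest apart for the chromosome 19 arms over the chromosome 9 arm (difference 1.94), and they overlap for miR-181c-5p over miR-181c-3p.

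Since the 4 5p arms share a seed, their counts were summed. How reads of miR-181a-5p and miR-181b-5p, which are made at 2 loci, were counted is not stated. If their counts are incomplete, the sum would be too low and the shares within it would shift, which was not tested. The sum was 86.7, 92.5 and 80.8 CPM in ΔTUT4/7 and 57.3, 42.7 and 46.6 CPM in wild type replicates 1, 2 and 3. All ΔTUT4/7 libraries were higher, with means of 86.7 ± 5.85 and 48.9 ± 7.60 CPM (SD, n = 3 each), or 1.77-fold, and the exact permutation test gave p = 0.1, the smallest possible. miR-181d-5p made up most of the sum. Its share of the 5p counts was 79.8%, 78.9% and 77.8% in ΔTUT4/7 and 64.4%, 68.5% and 66.3% in wild type replicates 1, 2 and 3, without overlap. For single libraries the 95% Wilson intervals of this share reached down to 73.4% in ΔTUT4/7 and up to 73.2% in wild type, and they cover counting error only.

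**Figure D4:**
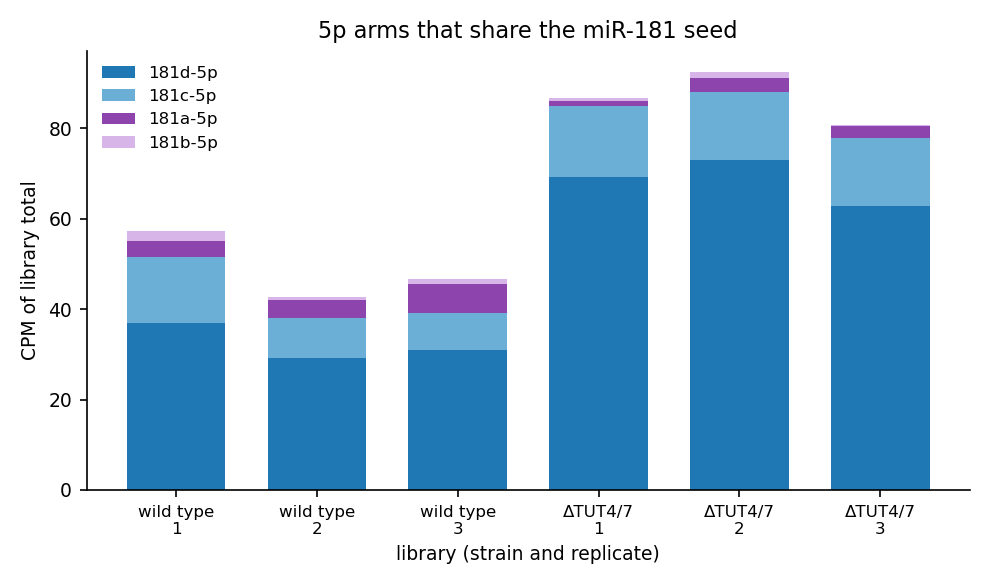
Stacked CPM of the 4 5p arms with the seed ACAUUCA in each library. The total is 80.8 to 92.5 CPM in ΔTUT4/7 and 42.7 to 57.3 CPM in wild type libraries, and the miR-181d-5p part is the largest in each.

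In these libraries the 3p arms of miR-181a and miR-181c outnumbered the 5p arms. Averaged over the 6 libraries, miR-181a-3p had 40.1 times the CPM of miR-181a-5p, although the 5p sequence is made by 2 hairpins. miR-181c-3p had 3.73 times the CPM of miR-181c-5p. Among 172 pairs of arms with exactly matching names and a mean of at least 10 CPM in either arm, the 3p arm was the higher in 73. Ordered from the most 3p-biased pair, miR-181a was number 27 and miR-181c number 56. The limit on counts of arms made at 2 loci holds for miR-181a-5p here too.

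The miRNAs nearest to the family in the genome lie on chromosome 19, where the miR-23a and miR-27a hairpins sit on the opposite strand. The arm miR-23a-5p lies 38069 bp from MIR181C. By the counts listed under their names, no arm of miR-23a or miR-27a rose as miR-181d-5p did. miR-23a-3p fell by 1.31 on the log2 scale (standard error 0.23, edgeR adjusted p = 8.05e-04), from 20.9 ± 3.33 CPM in wild type to 8.41 ± 1.43 CPM in ΔTUT4/7 cells (SD, n = 3 each). miR-27a-3p fell by 0.68 (standard error 0.22, edgeR adjusted p = 0.0242). miR-27a-5p and miR-23a-5p had log2 fold changes of -0.014 and -0.043 that did not pass. Over all libraries, miR-23b-3p and miR-27b-3p had mean levels of 2669 and 7216 CPM, against 14.7 and 25.2 CPM for miR-23a-3p and miR-27a-3p. Their log2 fold changes were -1.12 and -0.78 (edgeR adjusted p = 1.85e-05 and 0.00315). Whether the trimmed reads tell the 3p arms of each pair apart was not tested. The falls of miR-23a-3p and miR-27a-3p therefore cannot be assigned to chromosome 19. No miRNA of the table outside the family lay within 100 kb of the other 2 loci.

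Of the 45 hairpins on the group II list, 42 were matched by name, with 54 tested arms. Of these, 18 were higher and 8 lower by at least 2-fold with an adjusted p under 0.05 (edgeR), where 16.5% and 13.6% of all tested miRNAs were, and their median log2 fold change was 0.26. The tested miR-181 arms on the list were miR-181d-5p, which rose, and miR-181b-5p, which is also made by MIR181B2 and did not pass.

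For each locus, the miRNAs with the most similar course over the 6 libraries were sought among 386 others of at least 10 CPM, by Pearson's r of log2(CPM + 1), as a description. The libraries share their totals, and for arms that changed, the points fall into the 2 strains. miR-181d-5p was most like miR-5699-3p, miR-20a-5p and miR-29c-5p (r = 0.998, 0.997 and 0.996), whose log2 fold changes were 0.95, 1.04 and 0.75. miR-181a-2-3p was most like miR-34c-5p, miR-187-3p and miR-34a-5p (r = 0.994, 0.992 and 0.990), whose log2 fold changes were -6.45, -1.77 and -2.25. miR-181a-3p had no near match, and miR-548k, miR-660-5p and miR-21-5p came closest (r = 0.693, 0.692 and 0.682).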

How the data were processed

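Mature miRNAs of 3 ΔTUT4/7 and 3 wild type libraries (QIAseq miRNA Library Kit, NextSeq 500) were trimmed by the authors to 18 nt, aligned to hg38 with Bowtie 1.0.0 and quantified on mature miRNAs of miRBase in Partek 10.0.22. The deposited values are estimated counts, written by the authors as whole numbers. Whether molecular identifiers were used is not stated in these sources. A deposited comparison of the strains, with fold changes and p-values, was not used.

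CPM were computed on each library's total. Every miRNA with more than 7 counts in some library, the study's limit, entered edgeR 4.0.16 in R 4.3.3 and its quasi-likelihood test (normalization factors of 1, Benjamini-Hochberg adjustment over 826 miRNAs, common dispersion 0.0358). Log2 ratios, with 0.5 added to each sum, were compared by 2-sided exact permutation tests in scipy 1.17.1. Alternatives used DESeq2 1.42.0 and limma 3.58.1, among others. Members and lists were chosen with earlier results of these data known. The miRNAs named are the 7 arms, the family's other arms, miRNAs within 100 kb, and the 3 most similar miRNAs per locus. Also named are miR-23b-3p and miR-27b-3p, which are set beside miR-23a-3p and miR-27a-3p. Sequences are RefSeq's, and their starts equal those in the count table, whose stops lie 1 base further.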

Additional observations from a re-analysis of the deposited data

How the results depend on the processing

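The 2-fold calls of miR-181d-5p and miR-181a-2-3p held under all 15 alternatives to edgeR's fit. With each library left out in turn, the log2 fold change ranged from 1.01 to 1.19 for miR-181d-5p and from -1.41 to -1.24 for miR-181a-2-3p. With the counts of miR-181b-5p added to those of miR-181d-5p, whose first 18 nt differ at 1 base, the value was 1.04. miR-181a-5p, which missed the threshold, passed with TMM factors (-1.0005), RLE factors (-1.08), limma-trend on log2(CPM + 1) (-0.81), the filterByExpr limit (-1.03) and the replicate block (-1.03), and its values with libraries left out ranged from -1.32 without ΔTUT4/7 replicate 2, where it passed, to -0.71. miR-181c-5p ranged from 0.42 to 0.83 with libraries left out and passed without wild type replicate 1 and, at 0.77, when let-7 and miR-98 were taken out of the totals. This change moved the median of all tested miRNAs from 0.013 to 0.24 and gave 183 higher and 81 lower calls in place of 136 and 112. miR-181a-3p changed sign with RLE factors (-0.030) and ranged from -0.034 to 0.077 with libraries left out. miR-181c-3p ranged from 0.13 to 0.23. miR-181b-5p ranged from -1.22 to -0.22, and was not tested without wild type replicate 1 or with filterByExpr. The causes of these shifts were not tested.

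All 6 within-library ratios kept their direction under every alternative, but with miR-181c-3p as the only chromosome 19 arm, a choice made once the data had been seen, the strains overlapped against chromosome 1 (0.18). With libraries left out, the chromosome 19 arms over the a and b arms differed by 1.08 to 1.14, over the chromosome 1 arm by 0.56 to 0.65 and over the chromosome 9 arm by 1.90 to 1.99, and the chromosome 1 over the chromosome 9 arm by 1.28 to 1.37. The ratio of miR-181d-5p to miR-181c-5p ranged from 0.35 to 0.62 and that of the miR-181c arms from 0.26 to 0.62. The labels give both strains the same replicate numbers, but same-numbered libraries did not deviate together (correlations of -0.13, -0.10 and -0.17). The labels do not say whether same-numbered libraries were prepared as pairs, and 3 libraries per strain cannot settle this. With the replicate block, miR-181d-5p had 1.09 and miR-181a-2-3p -1.32, and 131 miRNAs were higher and 102 lower. For the ratios, 3 pairs allow no exact p below 0.25.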
